A study of Mus musculus with 4 samples.

Results

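The genes described here are the growth factor, Rap1 and actin signalling genes of a table that compared embryonic stem cells with and without CID755673. They are the 38 genes, of 1593 listed, that carried at least 1 of 4 KEGG pathway terms: Pathways in cancer, Rap1 signaling pathway, Regulation of actin cytoskeleton and Phospholipase D signaling pathway. Of 60 genes with such a term, 12 were left out because they also belonged to neuroactive receptor, arachidonic acid, serotonergic synapse or chemical carcinogenesis pathways. A further 10 were left out by name: Fgf5, Fgf15, Lef1, Myc, Rac1, Abl1, Cdkn2b, Tek, Kdr and Fas. RNA was sequenced from mouse 46C cells, an embryonic stem cell line with a Sox1 reporter. The PD group was kept in serum with 1 µM PD0325901 for 24 h and the PC group in the same medium with CID755673 added, with 2 libraries each. PD0325901 inhibits MEK, so that MEK was inhibited in both groups, and CID755673 inhibits protein kinase D. CID755673 was used at a dose not given in the sources used here. Whether the libraries of a group came from separate cultures is not stated either, so that the p-values cover the spread between libraries, and that spread may be technical.

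Growth factors such as FGFs bind receptor tyrosine kinases at the cell surface, and the receptors pass the signal to Ras, PI3 kinase and phospholipase C. Rap1 is a small GTPase of the Ras family that exchange factors switch on, and it is best known for activating integrins and for strengthening cell junctions. Phospholipase D and diacylglycerol kinases both make phosphatidic acid, a lipid messenger, while p21-activated kinases and the Wiskott-Aldrich protein carry signals from small GTPases to actin filaments. In mouse embryonic stem cells the FGF and ERK route favours exit from naive pluripotency, and it is the route that PD0325901 blocks.

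The windows before the start sites of 4 ligand genes are shown, because the FGF ligands Fgf18 and Fgf23 both had lower values with CID755673 while the Wnt ligands Wnt6 and Wnt16 went in opposite directions. Each is the 250 bases upstream of the annotated start, 5′ to 3′ on the gene's strand, from RefSeq on GRCm38.p6: Fgf18 at chr11:33147401-33147650, minus strand, Fgf23 at chr6:127072652-127072901, plus strand, Wnt6 at chr1:74771642-74771891, plus strand, and Wnt16 at chr6:22287977-22288226, plus strand. Capitals mark matches on either strand to any of 6 motifs: CTTTGA (TCF/LEF core), CCGGAA (ETS core), TGANTCA (AP-1), TGACGTCA (CRE), AGGTCA (retinoic acid receptor half-site) and CACGTG (E-box).
Fgf18: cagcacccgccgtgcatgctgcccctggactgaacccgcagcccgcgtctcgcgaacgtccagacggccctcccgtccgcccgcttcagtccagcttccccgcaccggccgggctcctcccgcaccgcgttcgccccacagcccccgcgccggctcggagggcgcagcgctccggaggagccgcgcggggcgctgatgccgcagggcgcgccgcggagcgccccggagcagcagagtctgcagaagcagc
Fgf23: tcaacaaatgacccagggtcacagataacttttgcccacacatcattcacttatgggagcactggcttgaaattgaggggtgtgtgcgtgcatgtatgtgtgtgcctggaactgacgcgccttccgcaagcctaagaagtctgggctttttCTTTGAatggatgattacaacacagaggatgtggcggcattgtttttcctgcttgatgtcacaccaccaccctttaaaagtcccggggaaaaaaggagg
Wnt6: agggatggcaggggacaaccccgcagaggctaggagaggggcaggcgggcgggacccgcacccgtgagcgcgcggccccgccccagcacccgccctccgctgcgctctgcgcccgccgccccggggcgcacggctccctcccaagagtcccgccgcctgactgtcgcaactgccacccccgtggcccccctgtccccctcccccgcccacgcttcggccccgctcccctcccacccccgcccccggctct
Wnt16: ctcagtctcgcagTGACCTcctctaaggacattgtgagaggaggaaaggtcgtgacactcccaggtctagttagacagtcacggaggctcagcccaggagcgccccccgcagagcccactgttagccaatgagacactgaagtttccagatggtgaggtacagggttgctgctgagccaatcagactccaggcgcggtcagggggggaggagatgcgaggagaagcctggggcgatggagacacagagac

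Fgf23 held 1 TCF/LEF core and Wnt16 held 1 retinoic acid receptor half-site, and these matches overlapped no other. Fgf18 and Wnt6 held none of the letters searched. GC content was 77.2% for Fgf18 and 79.6% for Wnt6, with 37 and 28 CpG pairs, against 48.4% and 6 CpG pairs for Fgf23 and 59.2% and 9 for Wnt16. RefSeq windows were matched by symbol for 25 of the 38 genes, 34 windows in all. The TCF/LEF core was in 8.82% of these and in 13.8% of all 32851 windows, the ETS core in 5.88% and 12.03%, and the retinoic acid receptor half-site in 11.8% and 14.02%. The E-box was in 5.88% and 6.02%, and AP-1 and CRE were in 0 of the 34, against 6.75% and 1.55% of all windows. The median GC content was 60.6% in the 34 windows and 52.4% in all windows. A match describes letters in a window and does not show a bound site.

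Values are normalized reads, that is, reads divided by a size factor of the library, and differences are PC minus PD on the scale of log2(normalized reads + 1). All 1593 listed genes had been chosen by the authors on these libraries for a change of at least 2-fold at p under 0.05, so that every gene here differed by selection. Among the 38, the gene nearest to that limit, Lat, differed by -1.02, and unlisted genes are not analysed here. Of the 38 genes, 31 were lower and 7 higher in PC. Lower values made up 61.5% of all listed genes. By limma, with Benjamini-Hochberg adjustment over all 31432 genes tested by the authors, 16 of the 38 were called, against 31.1% of all listed genes. Of these, 13 fell (background 19.8% of listed genes) and 3 rose (background 11.2%). Because the selection used the same contrast, no more is read from these shares. The PC and PD libraries did not overlap for any of the 38, nor for 99.7% of listed genes. In the fit to the logged values the calls need the trended prior for the spread: with a prior without trend 0 of the 38 were called (limma; 38 at an unadjusted p under 0.05). They also needed all 4 libraries. limma's voom on the recovered whole reads called 20, among them the same 16, against 41.5% of all listed genes. Scaled by each library's reads on listed genes in place of the authors' size factors, voom shifted the differences up by 0.29 log2 units at the median. It called 5 genes higher and 13 lower, with 317 and 304 among all listed genes, and none of the 38 changed direction. The balance of calls thus moved with the scaling. The listed genes were all selected for change and 61.5% were lower in PC, so scaling by them pushes the differences up. It cannot show which balance is right.

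**Figure D1:**
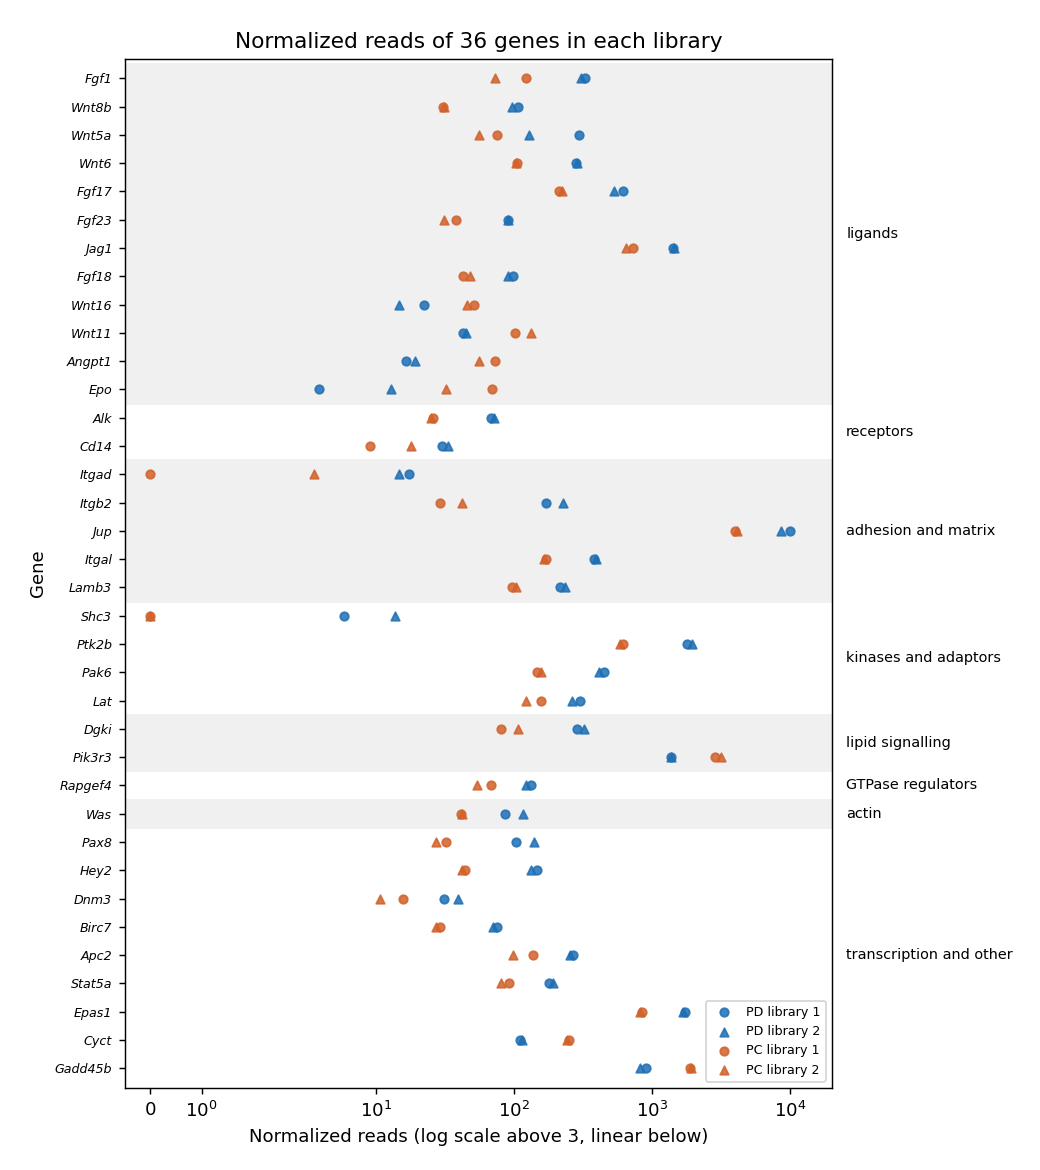
Normalized reads of each of 36 genes (rows, grouped by role) in the 2 PD libraries (blue) and the 2 PC libraries (orange), on an axis that is logarithmic above 3 and linear below. In every row both orange symbols lie on the same side of both blue symbols, and Shc3 and Itgad reach 0 reads in PC.

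Between 433684 (PC replicate 2) and 683777 (PD replicate 2) reads fell on listed genes, and the depth of the whole libraries is unknown. The 38 genes had from 21 reads in all 4 libraries together, for Shc3, to 27791, for Jup. Of 10 embryonic stem cell markers 2 were listed, Lin28a and Utf1, with a summed level of 14982 to 15535 in PD and 5553 to 5689 in PC. Listed markers of other cell types moved as well: 2 of 4 endothelial markers (Tek and Kdr) summed to 3343 to 3527 in PD and 1335 to 1499 in PC, and 3 of 4 muscle markers to 626 to 812 and 294 to 304. For 2 of 6 extra-embryonic endoderm markers, Gata6 and Sox17, the sum was 209.9 to 221 in PD and 466 to 512 in PC. The trophoblast marker Gata3, of 5, stood at 380.1 to 384 and 133 to 195, and the fibroblast marker Col3a1, of 5, at 89.2 to 114 and 38.9 to 48.8, while 0 of 3 neural progenitor markers were listed. Their part in the differences below was not tested, and in bulk RNA fewer cells of a type and less RNA per cell cannot be told apart.

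All 4 FGF ligands among the 38 genes were lower with CID755673, beside 61.5% lower among all listed genes. Fgf5 and Fgf15, left out by name, are not among them. The FGF ligands were the only members that carried 3 of the 4 pathway terms. Fgf17, a ligand of the FGF8 subfamily, was at 611 and 531 normalized reads in PD and 211 and 224 in PC. It fell by 1.39 log2 units (limma SE 0.13, adjusted p = 0.016), and its means differed 2.62-fold, and was the 1 FGF ligand that passed. Fgf1, which can bind all FGF receptors, was at 326 and 307 in PD and at 122 and 72.6 in PC. The 2 PC libraries of Fgf1 stood further apart than the PD libraries, and its difference of -1.74 (SE 0.27) did not pass (limma adjusted p = 0.07), although it did with voom on reads (limma adjusted p = 0.017). Fgf18, a relative of Fgf8 and Fgf17 known from bone and lung, was at 97.9 and 90.7 in PD and 42.3 and 47.6 in PC. Fgf23, the hormone of phosphate balance, was at 90.2 and 89.8 in PD and at 38.1 and 30.9 in PC. Neither passed (limma adjusted p = 0.20 and 0.12). Per kilobase of annotated exon, Fgf17 had the highest level of the 4 in PD, 338 ± 33.6 normalized reads (SD, n = 2), followed by Fgf18 with 79.5 ± 4.29, Fgf1 with 57.9 ± 2.43 and Fgf23 with 49.6 ± 0.14. In PC the order of the first 2 was the same, at 129 ± 5.18 and 37.8 ± 3.18, while Fgf23 with 19.0 ± 2.80 and Fgf1 with 17.8 ± 6.37 did not differ beyond their spread.

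The 5 Wnt ligands split, 3 lower and 2 higher in PC, beside 61.5% lower among all listed genes. Wnt6, which signals through beta-catenin, was at 278 and 285 normalized reads in PD and 105 and 102 in PC. It fell by 1.43 log2 units (limma SE 0.14, adjusted p = 0.018), and the libraries of each group lay close together. Wnt8b, a ligand of the developing forebrain, was at 106 and 97.1 in PD and 30.7 and 30.9 in PC. Its difference of -1.69 (SE 0.24) missed the threshold (limma adjusted p = 0.053). Wnt8b passed with voom on reads (limma adjusted p = 0.031), but not with voom scaled by reads on listed genes (limma adjusted p = 0.075). Wnt5a, the best known ligand of the branch that works without beta-catenin, was at 295 in PD replicate 1 and 127 in PD replicate 2, and at 75.4 and 55.9 in PC. Its PD libraries were thus more than a log2 unit apart, and the difference of -1.56 (SE 0.43) did not pass (limma adjusted p = 0.39). Wnt11, a ligand of cell movements in the embryo, went the other way, from 42.7 and 44.9 in PD to 101 and 132 in PC, and Wnt16 from 22.3 and 14.7 to 51.4 and 45.2. Neither passed (limma adjusted p = 0.10 and 0.36). With voom scaled by reads on listed genes, which pushes the differences up, Wnt11 passed (limma adjusted p = 0.027). Wnt16 did not (limma adjusted p = 0.11). Per kilobase, Wnt6 had the highest level of the 5 in both groups, 128 ± 2.17 normalized reads in PD and 47.3 ± 0.94 in PC (SD, n = 2). Wnt11 stood at 10.6 ± 0.38 per kilobase in PD, below Wnt8b with 29.2 ± 1.74, and in PC at 28.2 ± 5.29, above Wnt8b with 8.85 ± 0.06. Exons of Wnt5a and Wnt11 overlap those of a gene on the opposite strand in GENCODE M21, and whether reads were counted by strand is not stated.

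Among the other ligands, Jag1 was lower and Angpt1 and Epo were higher. Jag1, a Notch ligand displayed on the cell surface, was at 1414 and 1443 normalized reads in PD and 727 and 641 in PC. It fell by 1.06 log2 units (limma SE 0.11, adjusted p = 0.018). Angpt1, the angiopoietin that activates the receptor Tek, was at 16.5 and 19.2 in PD and at 72.9 and 55.9 in PC, and its means differed 3.61-fold. Its difference of 1.79 (SE 0.33) missed the threshold (limma adjusted p = 0.12). It passed with voom scaled by reads on listed genes, which pushes the differences up (limma adjusted p = 0.039). Epo, the hormone of red cell formation, had the largest ratio of means upwards, 6.04-fold, but the 4 libraries were at 3.88 and 12.8 in PD and 68.8 and 32.1 in PC. Its libraries differed within each group by over a log2 unit, and it did not pass (limma adjusted p = 0.34). Exons of Epo overlap those of Gnb2 on the same strand, and exons of Angpt1 those of an antisense gene. Of the 13 ligands as a whole, 3 fell, 0 rose and 10 did not pass in the fit to the deposited values. Among all listed genes 19.8% were called lower and 11.2% higher.

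**Figure D2:**
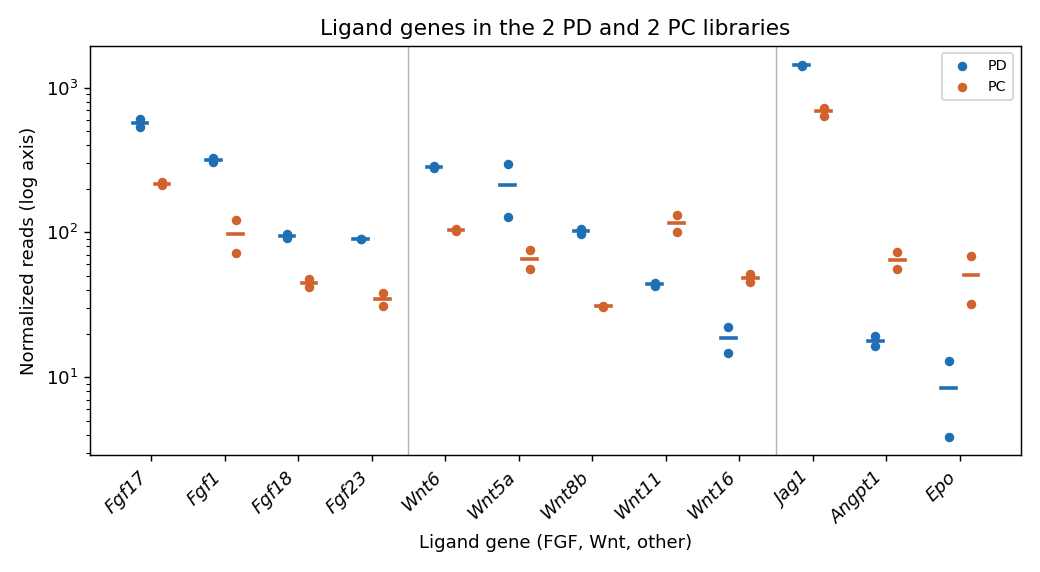
Normalized reads (log axis) of 12 ligand genes, with 1 point per library and a bar at the group mean (PD blue, PC orange, n = 2). All 4 FGF genes lie lower in PC, whereas Wnt11, Wnt16, Angpt1 and Epo lie higher.

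The receptor genes Alk and Cd14 were lower in PC and did not pass. Alk, a receptor tyrosine kinase of the nervous system, was at 67.9 and 71.5 normalized reads in PD and at 25.7 and 25.0 in PC (limma adjusted p = 0.13). Cd14, a receptor for bacterial lipopolysaccharide on myeloid cells, had fewer reads, with 30.1 and 33.0 in PD and 9.11 and 17.8 in PC (limma adjusted p = 0.83).

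Adhesion and matrix genes were lower in all 5 cases, and 4 of them fell, beside 61.5% lower and 19.8% called lower among all listed genes. The 4 that fell had a mean of at least 100 normalized reads, and of all listed genes at that level 370 of 597 were called in either direction. Itgb2 encodes the beta-2 integrin chain that pairs with several alpha chains on leukocytes. It was at 171 and 225 normalized reads in PD and at 29.0 and 41.6 in PC, and it fell by 2.46 log2 units (limma SE 0.28, adjusted p = 0.026), and its means differed 5.60-fold. Itgal encodes the alpha-L chain that joins Itgb2 to form LFA-1, an integrin that Rap1 activates. It was at 377 and 389.5 in PD and at 169 and 165 in PC, and it fell by 1.19 (limma SE 0.12, adjusted p = 0.020). Per kilobase of exon the chains stood at 64.7 ± 12.5 (Itgb2) and 58.4 ± 1.32 (Itgal) in PD, within their spread, and at 11.6 ± 2.93 and 25.5 ± 0.39 in PC, where Itgal was higher in both libraries (SD, n = 2). Itgad, another partner chain of Itgb2, was at 17.5 and 14.7 in PD, and at 0 and 3.57 in PC. That is 34 reads against 3, a ratio of 10.9 with an exact 95% interval of 3.44 to 55.6 that covers counting error only, and it did not pass (limma adjusted p = 0.32). Exons of Itgad overlap those of 4 other genes, which makes its few reads uncertain.

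Jup, or plakoglobin, is a catenin of desmosomes and adherens junctions that is related to beta-catenin. It was the most abundant of the 38 genes in reads, with 10003 and 8508 normalized reads in PD and 3937 and 4092 in PC. It fell by 1.20 log2 units (limma SE 0.11, adjusted p = 0.015). Lamb3, a chain of the laminin of epithelial basement membranes, was at 213 and 232 in PD and at 96.1 and 102 in PC. It fell by 1.16 (limma SE 0.16, adjusted p = 0.044), a call that ended with a pseudocount of 0.1 (limma adjusted p = 0.054). The call also ended with voom scaled by reads on listed genes (limma adjusted p = 0.11).

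The 2 protein kinases fell and the 2 adaptors did not pass, beside 19.8% called lower among all listed genes. Ptk2b, or Pyk2, is a cytoplasmic tyrosine kinase related to focal adhesion kinase that responds to calcium. It was at 1788 and 1947 normalized reads in PD and at 617 and 585 in PC, and it fell by 1.63 log2 units (limma SE 0.10, adjusted p = 0.012), the smallest adjusted p of the 38. Pak6, a p21-activated kinase that binds Cdc42, was at 445 and 412 in PD and at 146 and 156 in PC, and it fell by 1.50 (limma SE 0.13, adjusted p = 0.014). Lat, the scaffold of T cell receptor signalling, was at 301 and 264 in PD and at 156 and 123 in PC, which did not pass (limma adjusted p = 0.10). Shc3, a neuronal adaptor between receptor tyrosine kinases and Ras, was at 5.82 and 13.7 in PD, and both PC libraries held 0 reads. It was at least 3.23-fold lower against a floor of 3 reads per PC library, and it missed the threshold (limma adjusted p = 0.051) but passed with voom on reads (limma adjusted p = 0.020).

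The lipid signalling genes went in opposite directions and both passed, beside 31.1% called in either direction among all listed genes. Dgki, a diacylglycerol kinase that ends diacylglycerol signals by making phosphatidic acid, was at 284 and 321 normalized reads in PD and at 80.4 and 106 in PC. It fell by 1.70 log2 units (limma SE 0.20, adjusted p = 0.026). Pik3r3, a regulatory subunit of PI3 kinase, was at 1367 and 1375 in PD and at 2841 and 3120.3 in PC. It rose by 1.12 (limma SE 0.09, adjusted p = 0.014), and its means differed 2.17-fold. Exons of Pik3r3 overlap those of a protein-coding gene on the same strand, so reads may be shared. Rapgef4, or Epac2, an exchange factor that cAMP switches on and that activates Rap1, was at 133 and 121 in PD and at 67.9 and 53.5 in PC (limma adjusted p = 0.17). Was, which drives branching of actin filaments through the Arp2/3 complex in blood cells, was at 85.3 and 116 in PD and at 41.4 and 41.6 in PC (limma adjusted p = 0.18). Dnm3, a dynamin that cuts vesicles from the membrane, was at 31.0 and 39.4 in PD and at 15.7 and 10.7 in PC (limma adjusted p = 0.44). Neither the 1 Rap1 exchange factor, nor Was or Dnm3, passed.

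**Figure D3:**
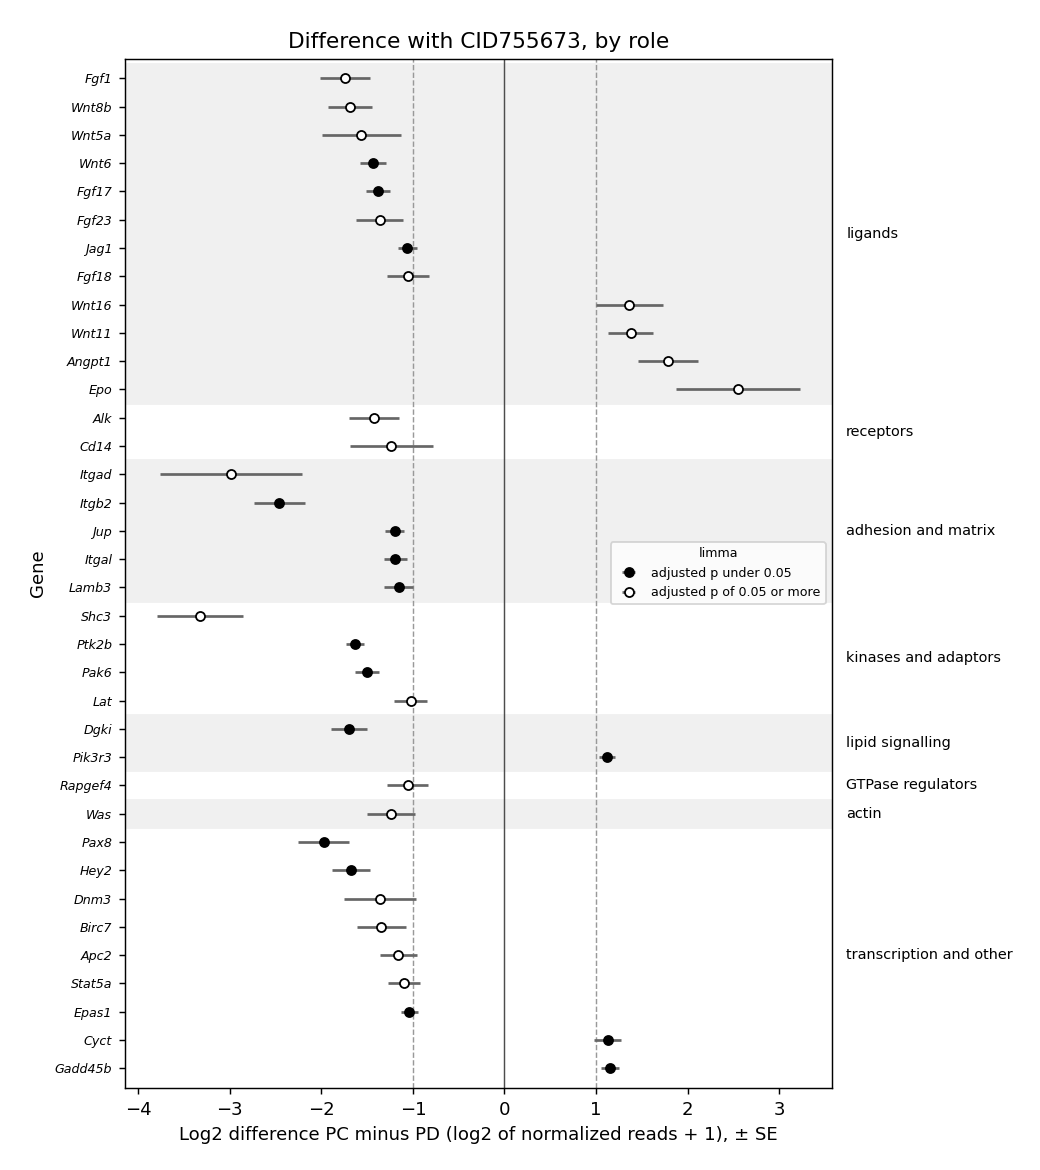
Log2 difference PC minus PD with its SE from limma for 36 genes, grouped by role. Filled points are the 16 genes with an adjusted p under 0.05, and dashed lines mark the 2-fold limit of the authors' table, which no point crosses inwards. The value of Shc3, at 0 reads in PC, depends on the constant added before the log.

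The 4 transcription factors were all lower, and 3 of them fell, beside 61.5% lower and 19.8% called lower among all listed genes. Epas1, the hypoxia-inducible factor HIF-2 alpha, was at 1737 and 1658 normalized reads in PD and at 837 and 815 in PC, and it fell by 1.04 log2 units (limma SE 0.09, adjusted p = 0.014). Hey2, a repressor that Notch signalling induces, was at 146 and 132 in PD and at 43.9 and 41.6 in PC. It fell by 1.68 (limma SE 0.21, adjusted p = 0.034), so that both it and the Notch ligand gene Jag1 passed as lower. Pax8, a factor of thyroid and kidney, was at 103 and 139 in PD and at 32.3 and 27.4 in PC. It fell by 1.97 (SE 0.28), just inside the threshold (limma adjusted p = 0.0496) and outside it with a pseudocount of 0.1 (limma adjusted p = 0.077), and its exons overlap those of a transcript on the opposite strand. Stat5a, a signal transducer of cytokine receptors, was at 178 and 192 in PD and at 92.0 and 79.7 in PC, which missed the threshold (limma adjusted p = 0.074).

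Among the remaining genes, 2 rose, beside 11.2% called higher among all listed genes. Gadd45b, a stress sensor that activates p38 and JNK signalling, was at 898 and 809 normalized reads in PD and at 1871 and 1921 in PC, and it rose by 1.15 log2 units (limma SE 0.10, adjusted p = 0.014). Cyct, the testis form of cytochrome c, was at 111 and 114 in PD and at 249 and 243 in PC, and it rose by 1.13 (limma SE 0.14, adjusted p = 0.036). Cyct is a paralog of the somatic gene Cycs, so the sharing of its reads is uncertain. Apc2, a relative of the tumour suppressor Apc in the complex that degrades beta-catenin, was at 267 and 255 in PD and at 137 and 98.7 in PC (limma adjusted p = 0.10). Its limma adjusted p was 0.048 with voom on reads and 0.18 with voom scaled by reads on listed genes. Birc7, an inhibitor of apoptosis, was at 75.6 and 70.6 in PD and at 29.0 and 27.4 in PC (limma adjusted p = 0.15). Neither passed in the fit to the deposited values.

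By pathway term, the counts stand beside 61.5% lower and 19.8% called lower among all listed genes, which had been selected on this contrast. All 11 genes of Regulation of actin cytoskeleton were lower and 4 fell, and all 5 genes of Phospholipase D signaling were lower and 2 fell. Of the 10 genes of Rap1 signaling, 9 were lower, of which 3 fell, and the 1 higher gene was Angpt1. Of the 24 genes of Pathways in cancer, 18 were lower, of which 8 fell, and 6 were higher, of which 3 rose. The median log2 difference was -1.24 over the 38 genes and -1.17 over all listed genes. The terms share genes, so these counts are not separate observations. Outside the rule, KEGG placed 11 of the 38 in Ras signaling, or 28.9%, against 2.54% of the 394 other listed genes with any KEGG term. PI3K-Akt signaling held 10, or 26.3% against 4.57%, and MAPK signaling 9, or 23.7% against 4.31%. The 38 were picked by terms of the same KEGG annotation, and its maps reuse the same ligands and receptors. Higher shares than in the other listed genes were thus set by the rule, and no result is read from them.

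Of 265 genes on lists of genes of these routes, 16 were listed, or 6.04%, and of all 31432 genes tested by the authors 5.07% were listed. The lists lacked some listed genes of the same routes, among them Fgf5, Fgf15, Fgf23, Alk, Tek, Kdr and Rac1. The counts in this paragraph are therefore too low, and no result is read from the 2 shares. Calls within the lists stand beside 19.8% called lower and 11.2% called higher among all listed genes. Of 38 growth factor ligands on a list of the pathway 5 were listed, 1 called lower and 0 called higher. Of 38 genes of Rap1 and its regulators 1 was listed and did not pass, and the same held for 1 of 22 of Ras and Ral. Of 26 integrins 3 were listed and 2 fell, and of 69 genes of actin and its regulators 2 were listed and 1 fell, Pak6. Of 18 genes of PI3 kinase, Akt and protein kinase C 1 was listed and rose, Pik3r3. Of 23 genes of phospholipases C and D and diacylglycerol kinases 2 were listed and 1 fell, Dgki, and of 9 adenylyl cyclases 0 were listed. The genes of protein kinase D, the FGF receptors and the Rap1 genes themselves were on these lists but are not analysed here.

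The 38 genes were more abundant than the listed genes as a whole, with a median of 123 normalized reads over the 4 libraries against 55.1. Of the 20 with a mean of at least 100, 14 were called, and of the 18 below it, 2. Among all listed genes the same split gave 370 of 597 and 125 of 996. Replicates lay closer together than for the listed genes as a whole: the median gap between the libraries of a group was 0.13 log2 units in PD and 0.18 in PC, against 0.25 and 0.29. The gaps were not compared with those of listed genes of like level, so the higher level of the 38 may account for this. The widest gaps among the 38 were those of Epo and Wnt5a in PD, at 1.50 and 1.20, and of Itgad and Epo in PC, at 2.19 and 1.07. In the authors' deposited table, 33 of the 38 had a false discovery rate under 0.05, against 70.2% of listed genes: 7 higher (26.4% of listed genes) and 26 lower (43.9%). The 16 genes called here were among them. Those above it included Shc3, Itgad, Cd14 and Dnm3, each with fewer than 100 reads in every library.

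**Figure D4:**
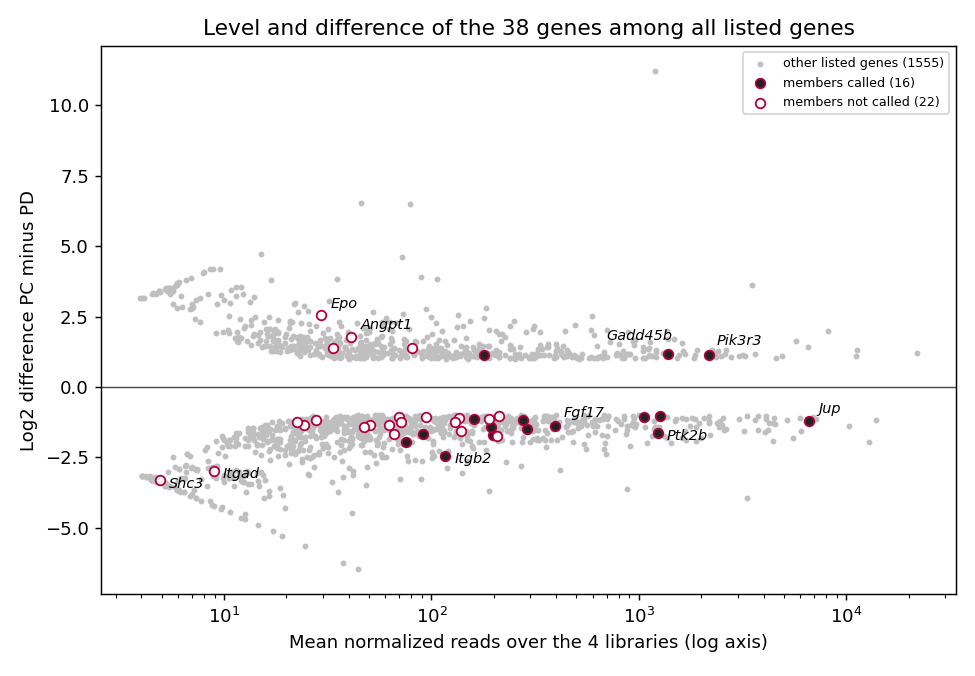
Mean normalized reads over the 4 libraries (log axis) against the log2 difference PC minus PD for the 38 genes (ringed in red, filled where called) and the other 1555 listed genes (grey). The band around 0 is empty because the authors listed only changes of at least 2-fold, and called genes lie mostly at higher levels.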

How the data were processed

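RNA was measured in 4 libraries. The authors deposited 1 table of selected genes; per the file headers it holds log2 values per library, group means, a log2 fold change, p-values and false discovery rates, and KEGG terms. Bowtie 0.12.2 and build mm9 are listed, without a role, per the submitters' processing notes. For counting, strand, annotation and test, tools were not given in the sources used here. With the log undone and 1 subtracted, 100% of the deposited values were whole reads (tolerance 0.001 reads) divided by a size factor of 1.0313 and 1.0911 (PD) and 1.207 and 0.8406 (PC).

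limma 3.58.1 (R 4.3.3) was fitted to log2(normalized reads + 1) of all 1593 listed genes, PC against PD, with a trended prior, 2 residual degrees of freedom and a mean of at least 1 normalized read, which removed none. Benjamini-Hochberg adjustment covered 31432 genes, the number that the deposited false discovery rate divided by the deposited p gives at rank 1, with unlisted genes placed behind the listed ones. Only genes selected for small p entered the spread and its prior, which can make it too small. The threshold for a call was an adjusted p under 0.05. Alternatives were other pseudocounts and filters, leaving out each library and, chosen after seeing the data, voom on recovered reads under 2 scalings and reads without size factors. The code was tested on simulated data. Exon lengths and overlaps came from GENCODE M21, matched by Ensembl ID for 38 of 38 genes. Members and lists were chosen with earlier results of these data known. Every called gene is named, and the others by level, difference and number of pathways. Values of 2 of the 38 genes enter the counts and fits but are not reported here.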

Additional observations from a re-analysis of the deposited data

How the results depend on the processing

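No alternative reversed the direction of any of the 38 genes. The selection of the table nearly fixes that. The calls were 3 genes higher and 13 lower, and 179 and 316 among all listed genes. With a prior without trend limma called 0 and 0 of the 38, and 1 and 0 of all listed genes, although 38 of the 38 had an unadjusted p under 0.05. At an adjusted p under 0.01 limma called 0 and 0, and 1 and 1 of all listed genes, again with 38 at an unadjusted p under 0.05. With 1 library left out the 38 gave 0 higher and 0 to 1 lower, the 1 being Shc3 without either PD library, and all listed genes gave 1 to 33 higher and 0 to 60 lower. In all fits with a library left out, the lone sample takes its spread from the group with 2, with 1 residual degree of freedom.

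The authors' false discovery rate, in the authors' deposited table, gave 7 and 26, and 420 and 699 over all listed genes. Without the size factors limma called 0 and 0 of the 38 (38 at an unadjusted p under 0.05), and 24 and 40 of all listed genes. Voom on recovered reads called 3 and 17, and 232 and 429 of all listed genes. Voom scaled by reads on listed genes called 5 and 13, and 317 and 304 of all listed genes. Planned count models on the recovered reads were tried and are not given here, because the deposited values are logged, and both voom settings were added with their outcome known. Under TMM scaling over listed genes, one of those models, the balance of calls turned over, with more genes called higher than lower both among the 38 and among all listed genes, a larger shift than with voom. TMM reversed the direction of none of the 38. Both scalings over listed genes rest on genes that were all selected for change, most of them lower in PC. They push the differences up and cannot show which balance is right. With the replicate number as a block limma called 6 higher and 27 lower, and 435 and 741 over all listed genes. The correlation of deviations between libraries of the same number was -0.0025 over 1452 genes, and the labels do not say that a number marks a shared culture, so the numbers were not taken as pairs. The cause of the other changes was not tested. Of the 18 genes with a mean under 100 normalized reads 2 were called, beside 125 of 996 among all listed genes at that level.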
